A study of Homo sapiens with 6 samples.

Results

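In a table of 14686 genomic regions where sequenced 3′ ends of polyadenylated RNA gather, 4318 regions carry no gene name. The 642 regions described here are the unnamed ones, outside the mitochondrial chromosome, whose midpoint lies within 20 kb of the midpoint of a region with a gene name on the same chromosome and strand. Each was paired with its nearest named region (its named neighbour, which in 47 cases is not the strongest region of that name), and the pair was followed through the 6 libraries. Of the other unnamed regions, 1128 had a named region within 20 kb on the opposite strand only, and 2545, mitochondrial ones left aside, had none within 20 kb. The rule used no measured level, although a region is in the table only where reads gathered.

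The libraries came from the established cell line H9, human embryonic stem cells (hESCs) at passage 51, and compare the transcripts of hESCs and of endoderm made from them at the passage from G1 into S phase. The 3 hESC libraries are labelled G1, G1/S and S and were taken at 0, 2 and 3 h from cells kept on matrigel in medium conditioned by mouse embryonic fibroblasts. The 3 endoderm libraries carry the same phase labels and were taken at 0, 3 and 6 h after 6 days of differentiation in RPMI with activin A at 100 ng/ml. Serum in that medium went from 0% through 0.2% to 2% and the medium was changed on day 3, so medium, serum and cell type cannot be told apart. The way cells were brought into phase and the event from which the hours count are not stated in the sources used here. Values that follow one another are in the order G1, G1/S, S, first hESC and then endoderm. Each combination of cell type and phase is 1 library, all from 1 passage of 1 line, so a ± SD below spans the 3 phases of a cell type and a p-value here reflects no more than the spread between these 6 libraries.

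Many genes end their messenger RNA at more than one place. The cleavage and polyadenylation machinery can use an early or a late poly(A) signal, so that transcripts of 1 gene differ in the length of their 3′ untranslated region, and signals inside introns give shorter transcripts still. A library that reads only the last stretch before the poly(A) tail shows each such end as a separate pile of reads, and priming by oligo(dT) on a run of adenines inside a transcript gives a pile as well. A pile without a gene name beside a named one can therefore belong to that gene, to another transcript or to an internal priming site, and the files do not say which. Positions are printed as deposited. The submitters' processing notes name the builds hg18 and NCBI36, and the strand was read from the order of the deposited coordinates. No genome or gene models of that build were used here, so no exon, intron or untranslated region is assigned.

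The unnamed regions lay mostly beyond the 3′ side of their named neighbour. On that side there were 492 of 642 (76.6%), at a median distance between midpoints of 8.19 kb, while 150 (23.4%) lay on the 5′ side at a median of 13.7 kb. Within 10 kb the split was 308 against 40. By distance, 7 lay within 1 kb, 14 at 1 to 2 kb, 86 at 2 to 5 kb, 241 at 5 to 10 kb and 294 at 10 to 20 kb. In the farthest class 184 were on the 3′ side and 110 on the 5′ side. The nearest was 214 bp away, beside TEAD4, and none overlapped its named neighbour. The pairs involve 544 named regions, of which 460 have 1 unnamed region, 71 have 2, 12 have 3 and 1, ADD1, a protein of the membrane skeleton, has 4.

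**Figure D1:**
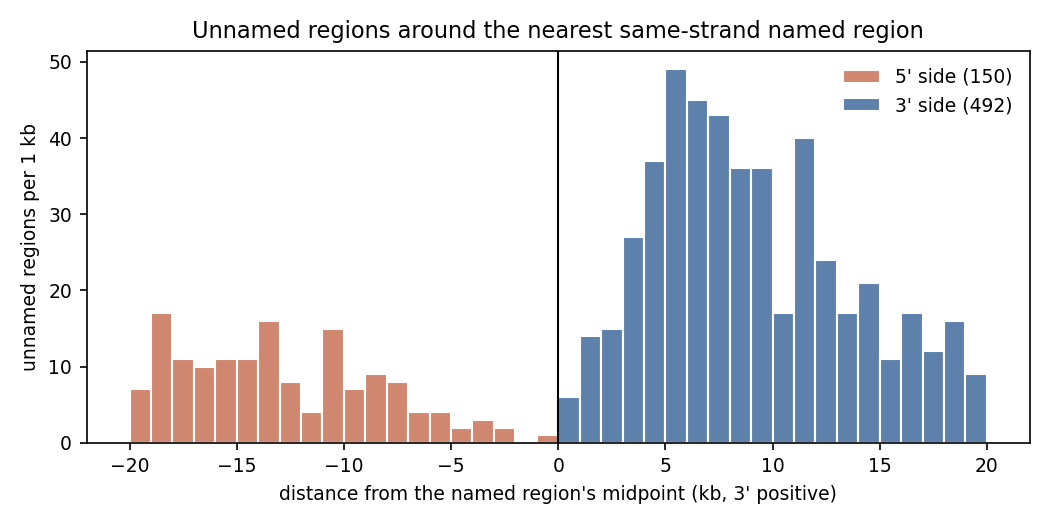
Histogram of the distance from each unnamed region's midpoint to that of its named neighbour, in kb, with the 3′ direction positive and 1 kb bars. Bars on the 3′ side (492 regions) rise towards 5 to 10 kb and exceed those on the 5′ side (150 regions), most of which lie beyond 10 kb.

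The limit of 20 kb cuts through a continuous range of distances. The members closest to it lay beside ZMAT2 at 19786 bp (mean signal 67.2 against 561 for the neighbour), SELI at 19777 bp (35.8 against 41.1) and KLF7 at 19748.5 bp (18.2 against 23.1). Just beyond it were unnamed regions beside NAP1L1 at 20004 bp (25.6 against 394), KIAA0857 at 20073.5 bp (52.0 against 287) and PPAP2A at 20078.5 bp (15.8 against 17.9). For orientation only, gene lengths were taken from a later annotation (RefSeq, GRCh38), where 532 neighbours matched by current symbol, 85 by an older one and 25 not at all. Closer to the neighbour than that gene is long were 113 of 143 regions with a match on the 5′ side (79.0%) and 396 of 474 on the 3′ side (83.5%).

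Most were weak. Their mean signal over the 6 libraries, in reads divided by a scaling constant per library, had a median of 18.7 against 66.6 for named regions, and the 10th and 90th percentiles were 9.87 and 91.7. Over the 6 libraries a member held at least 60 reads and a median of 122. Member regions were also narrower, with a median width of 158 bp against 205 bp for named regions. In the median pair the unnamed region held 22.4% of the pair's signal. In the hESC libraries that share was 18.9%, 20.2% and 24.4%, in the endoderm libraries 18.9%, 20.5% and 20%, so the typical division within a pair was close in the 2 cell types. The unnamed region exceeded its named neighbour in 155 pairs (24.1%) and was at least 10 times as high in 21.

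Library sizes ranged from 2502792 reads (endoderm S) to 6203079 reads (hESC S), so that 1 read is worth a signal of 0.591 to 1.71 and 3 reads, the limit that a count of 0 allows, 1.77 to 5.13. Each library showed between 0 and 17 members at 0. In bulk libraries fewer cells of a type and less RNA per cell cannot be told apart. Of the definitive endoderm markers, 8 of 9 had a region (HHEX had none) and all 8 rose, with summed signal going from 442 to 533 in hESCs to 8279 to 17230 in endoderm. All 8 hESC markers had a region, 3 fell, and their sum went from 3005 to 4254 down to 1281 to 1709. Markers of other cells were present as well. Mesoderm markers (2 of 4 with a region, MESP1 and T without, 1 higher) summed to 41.6 to 64.6 in hESCs and 98.0 to 276 in endoderm, trophoblast markers (3 of 5, CDX2 and CGA without, 1 higher and 2 lower) to 216 to 319 and 139 to 303. Neuroectoderm markers (2 of 3, SOX1 without, 1 higher) summed to 5889 to 8962 and 4937 to 11110, and stromal ones (4 of 5, COL3A1 without, 1 higher and 2 lower) to 7785 to 10092 and 5127 to 7502. The part of such cells in the results below was not tested.

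Together the 642 regions took 0.806%, 0.773% and 0.993% of the reads of the hESC libraries and 1.76%, 1.28% and 1.55% of those of the endoderm libraries. A single region made most of that difference in G1 and all of it in G1/S and S. It lies at chr10:92661777-92662025, 11.5 kb on the 3′ side of RPP30, which encodes a subunit of the transfer RNA processing enzyme RNase P. Its signal was 685, 2599 and 1881 in hESCs and 32463, 33887 and 32758 in endoderm, against 31.8, 12.5 and 24.8 and then 58.0, 15.0 and 34.2 for RPP30 itself. The 3 endoderm values stand far above the 3 hESC values, while those of RPP30 overlap between the cell types. In endoderm this region held 49.7%, 49.7% and 49.3% of all member reads and ranked 7 among all 14686 regions, where it ranked 417 in hESCs. Without it the members' share of reads was 0.788%, 0.714% and 0.941% in hESCs and 0.883%, 0.644% and 0.786% in endoderm.

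The next strongest regions belong to pairs of several kinds. Beside ANAPC11, the RING subunit of the anaphase-promoting complex, chr17:77438958-77439114 (12.2 kb on the 5′ side) had a signal of 950.2, 828 and 1529 in hESCs and 2682, 1912 and 2668 in endoderm, with no overlap. It rose by 1.17 ± 0.23 (SE) on the log2 scale (limma adjusted p = 0.0207, lost without either G1/S library, when the log2 difference was 1.15). This region overlaps one of THOC4 on the other strand, with a Pearson's r over the 6 libraries of 0.67, against -0.26 with ANAPC11. The region beside MLEC, a lectin of the endoplasmic reticulum, averaged 2024 ± 447 in hESCs and 1209 ± 197 in endoderm (SD, n = 3 libraries) and did not pass the threshold (limma adjusted p = 0.0655). At chr15:63030560-63034488, 10 kb on the 3′ side of SPG21, lies the widest region of the table, 3929 bp, when the next widest member has 411 bp. Its signal of 1714, 1458 and 1833 in hESCs was above the 804, 870.1 and 819.9 of endoderm in every library, a fall by 0.998 ± 0.22 (limma adjusted p = 0.0292). TBC1D16, a regulator of Rab GTPases, had a neighbour region that fell by 1.33 ± 0.29 (limma adjusted p = 0.0258), from 851, 842 and 763 to 416, 424 and 195. Both of these calls were lost without either library of G1/S (log2 differences of -1.13 and -1.50) or of S (-0.92 and -1.01). The other 5 of the 10 strongest lie beside DNAJB11, PGPEP1, SFPQ, IGF2BP1 and FBXL18, had mean signals of 408 to 817, and did not pass the threshold.

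The main comparison asked which of these regions differ between endoderm and hESCs. All regions were fitted together with a term for cell type and one for phase, and 639 of the 642 passed a filter on low values. In endoderm 42 rose and 37 fell, 79 in all or 12.4%, where 14.5% of all 14657 regions tested were called, 6.9% higher and 7.6% lower. The members' share of calls is thus near the background. Without adjustment 198 members (31.0%) had p under 0.05, against 34.2% of all regions tested. Their median log2 difference was 0.11 against 0.02 over all regions. The signals of the cell types did not overlap in 215 members, or 33.6% of those tested, against 33.4% of all regions tested, so this share too is near the background. The count fell to 20 without hESC G1/S, 23 without endoderm G1/S, 40 without hESC S and 47 without endoderm S. It was 79 or 83 without a G1 library. Of the 79 calls, 10 held in each of the 6 fits that leave out 1 library, 6 in none, and 65 were also made by edgeR. With 1 library per cell type and phase, leaving out either library of a phase gives the same log2 difference. The 6 fits thus hold only 3 different estimates of each difference, 1 per phase left out. Where just 1 library of a phase ends a call, the log2 difference is the same without the other library, and the error estimate differs. This holds for the ratios below as well.

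Regions on the 3′ and 5′ sides had different centres. On the 3′ side 34 of 490 rose and 25 fell (median log2 difference 0.24), and on the 5′ side 8 of 149 rose and 12 fell (median -0.46). Called in either direction were 12.0% on the 3′ side and 13.4% on the 5′ side, against 14.5% of all regions tested, so both shares are near the background. Whether the sides differ was not tested. Unnamed regions with no named region near had 135 calls higher and 326 lower of 2531 (18.2% called, median log2 difference -0.62). Those with a named region on the opposite strand only had 114 higher and 25 lower of 1127 (12.3% called, median 1.02).

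The largest rise lay beyond GSC (goosecoid), a homeobox transcription factor of the primitive streak and early endoderm. At chr14:94297812-94298062, 11.1 kb on its 3′ side, the signal was 4.54, 6.25 and 1.18 in hESCs and 215, 275 and 95.9 in endoderm, without overlap. GSC itself had 99.9, 79.1 and 49.0 and then 2234, 5257 and 1951. The unnamed region rose by 5.34 ± 0.39 on the log2(value + 1) scale, which understates changes of weak regions (limma adjusted p = 0.00162), and GSC by 5.26, so that the ratio within the pair moved by only 0.07 ± 0.53. A second unnamed region, chr14:94297433-94297675, lies just beyond the first. It went from 8.32, 2.08 and 5.32 to 77.3, 38.3 and 66.8, a rise by 3.39 ± 0.45 (limma adjusted p = 0.00604, lost without endoderm G1/S, when the log2 difference was 3.25).

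A few other rises also went with a rise of the neighbour. The region 1.19 kb beyond LRRC3, chr21:44707386-44707708, went from 3.03, 1.04 and 2.36 to 55.2, 43.3 and 54.8, and LRRC3 from 135, 118 and 86.2 to 889, 1361 and 1048. Both stood higher in every endoderm library, with rises of 4.10 ± 0.52 and 3.27 (limma adjusted p = 0.00531 for the unnamed region, lost without endoderm G1/S at a log2 difference of 3.93). Beside GATA4, a zinc finger transcription factor of endoderm and heart, chr8:11595486-11595637 lies on the 5′ side at 7.34 kb. It had 2, 0 and 2 reads in hESCs and 34, 14 and 9 in endoderm, that is a signal of 1.51, 0 and 1.18 against 23.5, 23.3 and 15.4. The rise was 3.599 ± 0.78 (limma adjusted p = 0.0258) beside 3.82 for this GATA4 region, the weaker of 2, and 4.599 for the stronger one. Every hESC value of this region lies under the limit of 3 reads, and the call was lost without any 1 endoderm library or hESC G1/S (log2 differences of 3.10 to 3.94). IL17RA, the receptor for interleukin 17, rose by 1.91, and the region 5.67 kb beyond it rose by 3.604 ± 0.41, from a mean signal of 6.09 ± 3.59 to 83.5 ± 38.3 (SD, n = 3; limma adjusted p = 0.00418).

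HAS2 makes hyaluronan, a polysaccharide of the extracellular matrix. On its 5′ side, at 15.6 kb, chr8:122722766-122722889 had 0.76, 1.04 and 2.36 in hESCs, which is 1, 1 and 4 reads, and 29.7, 126 and 179.7 in endoderm. It rose by 5.28 ± 0.57 (limma adjusted p = 0.00373) and HAS2 by 1.91. The ratio within the pair rose too, by 3.37 ± 0.77 (limma adjusted p = 0.0349). Near ENC1, an actin-binding protein, the unnamed region rose by 3.59 ± 0.67 (limma adjusted p = 0.0172), while ENC1 had a log2 difference of 2.84 and did not pass the threshold (limma adjusted p = 0.0572).

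The other large rises had no rise beside them. The region beyond RPP30 described above rose by 4.46 ± 0.35 (limma adjusted p = 0.00183), and RPP30 had a log2 difference of 0.51 (limma adjusted p = 0.393). IGFBP2 is a secreted protein that binds insulin-like growth factors. At chr2:217245248-217245460, 8.12 kb on its 3′ side, the signal was 11.3, 12.5 and 46.1 in hESCs and 697, 255 and 746 in endoderm, while IGFBP2 had 697, 748 and 669 and then 336, 423 and 450.2. Both regions separate the cell types completely, in opposite directions. The unnamed region rose by 4.68 ± 0.42 (limma adjusted p = 0.00227) and IGFBP2 had a log2 difference of -0.81 (limma adjusted p = 0.0643). Beyond CLCN6, a chloride transporter of intracellular membranes, chr1:11840054-11840188 had 37.8, 7.29 and 126 in hESCs and 1377, 165 and 613 in endoderm, with the lowest value of each cell type in G1/S. It rose by 3.92 ± 0.53 (limma adjusted p = 0.00604, lost without hESC G1/S at a log2 difference of 3.71), and CLCN6 had a log2 difference of -0.65. SAP30L belongs to a family of Sin3 corepressor subunits, and the region 19 kb beyond it rose by 3.96 ± 0.62 (limma adjusted p = 0.00968), from 0, 2 and 4 reads to 24, 31 and 24. Leaving out hESC G1/S, endoderm G1/S or endoderm S ended that call at log2 differences of 3.89 to 4.11.

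Among the falls, the one beyond DOHH, the enzyme that completes hypusine in the translation factor eIF5A, was the largest. At chr19:3425468-3425652, 16.4 kb on the 3′ side, the signal was 39.3, 48.9 and 75.02 in hESCs and 0.69, 1.66 and 0 in endoderm, which is 1, 1 and 0 reads. DOHH itself had 201, 380.0 and 157 and then 186, 439 and 373, which overlap. The unnamed region fell by 5.02 ± 0.67 on the log2 scale (limma adjusted p = 0.00604). TPM2 encodes a tropomyosin of the actin cytoskeleton. At chr9:35665078-35665190, 7.95 kb beyond it, the signal fell by 3.41 ± 0.48 (limma adjusted p = 0.0071), from 30.3, 101 and 95.7 to 1.38, 16.6 and 5.13. TPM2 went the other way, from 493, 759 and 497 to 1258, 1933 and 986, and rose by 1.23 (limma adjusted p = 0.0175). This is the weaker of 2 TPM2 regions. The stronger, at chr9:35675421-35675555, had 6727, 7354 and 4919 and then 4978, 11291 and 10465 and was not called (limma adjusted p = 0.342).

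In other pairs both members fell. CEL, a lipase that the exocrine pancreas secretes, fell by 2.01, and the region 15.5 kb beyond it by 4.39 ± 0.64, from 39.3, 52.1 and 43.1 to 1.38, 3.33 and 0 (limma adjusted p = 0.00786, lost without hESC G1/S at -4.77). MDM2, the ubiquitin ligase of p53, fell by 1.71, and the region 6.06 kb beyond it, chr12:67530140-67530245, by 3.17 ± 0.66. Its signal was 27.2, 21.9 and 18.3 in hESCs and 1.38, 1.66 and 1.71 in endoderm, or 2, 1 and 1 reads (limma adjusted p = 0.0229, lost without any 1 hESC library or endoderm G1/S, at -2.97 to -3.33). RABGAP1L, a Rab GTPase activator, has a weak named region here, with 61 reads in all, which is not the strongest of that name. It fell by 2.97, from 13.6, 20.8 and 11.2 to 2.07, 1.66 and 0, with no endoderm value above the limit of 3 reads. On its 5′ side, chr1:173187870-173188006 fell by 3.35 ± 0.80 (limma adjusted p = 0.0344). That call held in only 1 of the 6 fits leaving out a library, the one without endoderm G1. The region beyond ZMAT2 was high in 2 of 3 hESC libraries, with 279.9, 2.08 and 113 against 3.45, 0 and 5.13 in endoderm. ZMAT2 had 1433, 112 and 1495 and then 121, 99.8 and 108, so hESC G1/S sat at or near the endoderm level for both. The fall of 3.94 ± 0.84 (limma adjusted p = 0.025) was lost without hESC G1 (-2.92) or hESC S (-3.80).

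Of the 10 largest falls, the other 4 lie beside TRIM27, CDCA5, PPP6C and PCIA1, none of which was itself called. Beyond TRIM27, a ubiquitin ligase, the fall was 3.45 ± 0.64, from 64.3, 12.5 and 39.0 to 2.76, 1.66 and 1.71 (limma adjusted p = 0.0174), and it was lost without hESC G1/S (-4.0) or hESC S (-3.23). Beyond CDCA5 (sororin), which keeps sister chromatids together, it was 3.37 ± 0.72 (limma adjusted p = 0.0251), lost without endoderm G1/S or any 1 hESC library (-3.03 to -3.80). Beyond PPP6C, a protein phosphatase subunit, it was 3.32 ± 0.50 (limma adjusted p = 0.00889), and beyond PCIA1 3.13 ± 0.40 (limma adjusted p = 0.00528). Both of these calls ended without hESC G1/S, at -3.63 and -3.16.

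Side by side, most of the called unnamed regions had a named neighbour that was not called, which does not mean that the neighbour was unchanged. Of the 42 unnamed regions that rose, 11 had a neighbour that rose, 2 one that fell and 29 one that was not called. Of the 37 that fell, 10 had a neighbour that fell, 1 one that rose and 26 one that was not called. In the reverse direction, 49 members with a rising and 31 with a falling neighbour were not called. The neighbours of the 42 had a median log2 difference of 0.41, with 25 above 0, and those of the 37 a median of -0.43, with 23 below 0. For comparison, 720 of all 10355 named regions tested rose and 723 fell.

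**Figure D2:**
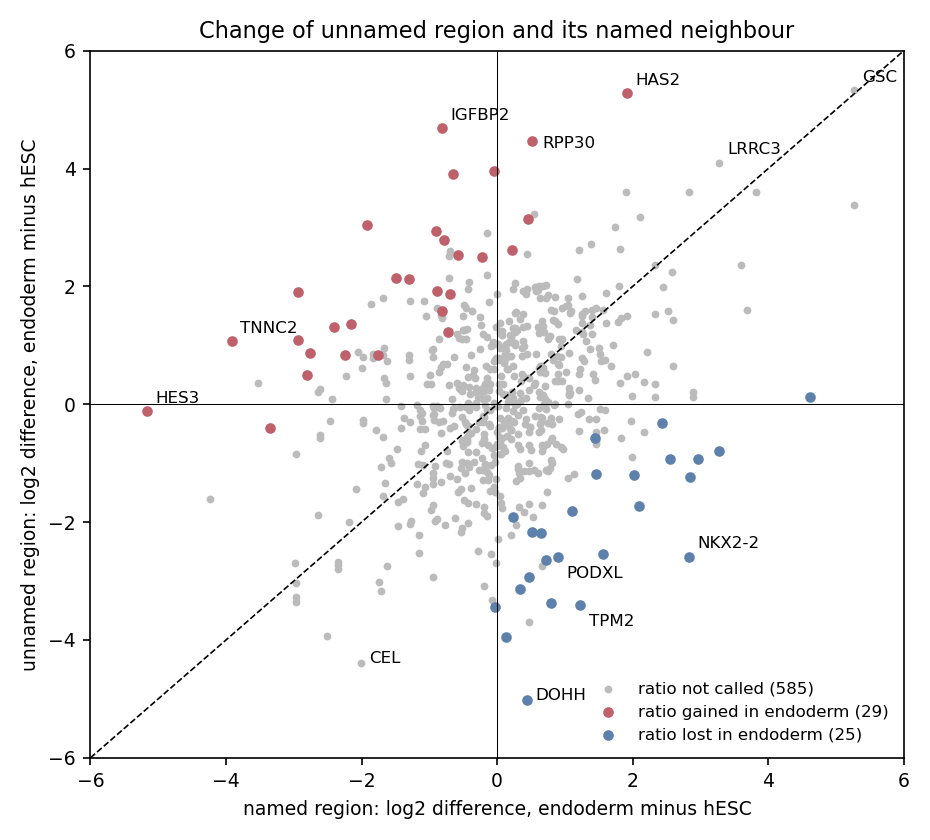
Log2 difference between endoderm and hESCs for each unnamed region (vertical) against that of its named neighbour (horizontal), 1 point per pair, with equal change on the dashed line and pairs whose ratio was called in colour. The pair of GSC lies near the dashed line at 5.26 and 5.34, IGFBP2 at the upper left, HES3 near 0 on the vertical axis and TPM2 at the lower right.

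To test whether a region changed differently from its neighbour, the log2 ratio of unnamed to named signal was fitted for 639 of these pairs. Together with them went 489 pairs of regions that share a name. The unnamed region gained on its neighbour in endoderm in 29 pairs and lost in 25, so 54 of 639 (8.45%) were called. Over all 1128 pairs 6.03% were called, 2.93% as gains and 3.1% as losses. Of the 489 pairs of the same name 14 (2.86%) were called. Pairs that share a neighbour are not independent. Without adjustment 166 of the 639 had p under 0.05. In 46 of the 54 the unnamed and the named region had log2 differences of opposite sign, and in 3 both were called, in opposite directions. The 54 were selected for a large difference between the 2 changes, which favours opposite signs. The share of opposite signs over all 639 pairs was not counted. The gains ranged from 1.95 to 5.50 on the log2 scale and the losses from 2.01 to 5.46. Calls were 3 of 107 pairs (2.80%) within 5 kb, 19 of 241 (7.88%) at 5 to 10 kb and 32 of 291 (11%) at 10 to 20 kb; that these shares differ was not tested. Of the 54, 34 held in each of the 6 fits leaving out 1 library and 51 were also called by edgeR. The count was 95 without hESC G1/S and 100 without endoderm G1/S.

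Of the 29 gains, 15 had an unnamed region that rose and 11 a named neighbour that fell. HES3 is a basic helix-loop-helix repressor of the Notch pathway's family. Its signal was 200.5, 318 and 103 in hESCs and 0.69, 9.98 and 6.85 in endoderm, while chr1:6221843-6222032, 7.13 kb on the 5′ side, had 46.9, 67.7 and 56.1 and then 55.9, 49.9 and 49.6. HES3 thus fell by 5.16, the unnamed region overlapped between the cell types (log2 difference -0.12), and the ratio rose by 5.04 ± 0.79 (limma adjusted p = 0.00822). In the pair of TNNC2, the troponin C of fast skeletal muscle, the named region went from 241, 188 and 179.6 to 11.05, 31.6 and 5.13. The region 6.38 kb beyond it, chr20:43878947-43879045, had 7.57, 17.7 and 14.2 and then 24.9, 25.0 and 32.5. Its log2 difference of 1.07 did not pass the threshold, TNNC2 fell by 3.92, and the ratio rose by 4.99 ± 0.80 (limma adjusted p = 0.00822). This unnamed region overlaps one of UBE2C on the other strand, with a Pearson's r over the 6 libraries of 0.79, against -0.86 with TNNC2. PTPRZ1, a receptor tyrosine phosphatase, fell by 2.40 and its pair's ratio rose by 3.72 ± 0.76 (limma adjusted p = 0.0235).

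In other gains the unnamed region rose. The ratio of IGFBP2 showed the largest gain of all, 5.50 ± 0.54 (limma adjusted p = 0.00225): the unnamed region held 3.23% ± 2.78 of the pair's signal in hESCs and 55.8% ± 16.0 in endoderm (SD, n = 3). The ratio rose by 4.57 ± 0.80 for CLCN6, 4.004 ± 0.80 for SAP30L and 3.95 ± 0.45 for RPP30, each with an unnamed region that rose. PEX6 is an ATPase that peroxisomes need to import their enzymes. Beyond it, chr6:43032333-43032510 went from 5.30, 12.5 and 8.27 to 67.0, 46.6 and 108, a rise by 2.93 ± 0.49 (limma adjusted p = 0.0123), while PEX6 had 651, 589 and 321 and then 251, 306 and 245. The share of the unnamed region thus went from 1.80% ± 0.88 to 21.6% ± 8.70, and the ratio rose by 3.84 ± 0.57 (limma adjusted p = 0.00822). CLEC2L was 1 of the 2 gains with both regions called. There the unnamed region rose by 3.05 ± 0.81 and CLEC2L fell by 1.91, with a gain of 4.96 ± 0.99 (limma adjusted p = 0.0212). The rise of that unnamed region held in only 1 of the 6 fits leaving out a library, the one without hESC S. For CHRNB2, a nicotinic receptor subunit, by contrast, neither region was called and the ratio rose by 3.64 ± 0.82 (limma adjusted p = 0.0336, lost without either G1 library at 2.91).

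Of the 25 losses, 13 had an unnamed region that fell and 10 a named neighbour that rose. DOHH had the largest, -5.46 ± 0.74 (limma adjusted p = 0.00609), as its unnamed region went from 20.03% ± 10.9 of the pair's signal to 0.25% ± 0.22. TPM2, the loss in which both regions were called, stood at -4.64 ± 0.50 (limma adjusted p = 0.0025). Set against the stronger TPM2 region, it was -3.83 ± 0.50 (limma adjusted p = 0.00637). NKX2-2 is a homeobox factor of the ventral neural tube and the pancreas. It had 0.76, 4.16 and 2.95 in hESCs and 4.14, 73.2 and 32.5 in endoderm, so that endoderm G1 was at the hESC level, and rose by 2.83. The region 11.8 kb beyond it, chr20:21427977-21428131, had 31.8, 19.8 and 16.5 and then 6.21, 6.65 and 0, with a log2 difference of -2.59 that did not pass the threshold (limma adjusted p = 0.0527). The ratio fell by 5.41 ± 0.95 (limma adjusted p = 0.0122).

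PODXL, a cell surface sialomucin that carries epitopes used to recognise hESCs, had 580.3, 410.2 and 727 in hESCs and 1694, 517 and 1280.3 in endoderm, which overlap. On its 5′ side at 15.7 kb, chr7:130862132-130862237 had 36.3, 50.0 and 33.1 and then 4.14, 8.32 and 5.13, which do not. That region fell by 2.59 ± 0.47 (limma adjusted p = 0.0156), a call lost without either G1/S library (-2.67) or hESC S (-2.66). The ratio fell by 3.49 ± 0.53 (limma adjusted p = 0.00822), in every fit leaving out a library. In the pair of LAMA1, a laminin chain of basement membranes, the unnamed region fell by 2.54 ± 0.59 and the ratio by 4.10 ± 0.80 (limma adjusted p = 0.0197). The fall of the region itself held in only 1 of the 6 fits leaving out a library, the one without endoderm G1. Losses also stood at 4.18 ± 0.82 for CDCA5 (limma adjusted p = 0.0197), and at 3.47 ± 0.82 for ERICH1 (limma adjusted p = 0.0391, lost without either S library at -2.998). The ERICH1 region of that pair, with a mean signal of 17.9, is not the strongest of its name.

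**Figure D3:**
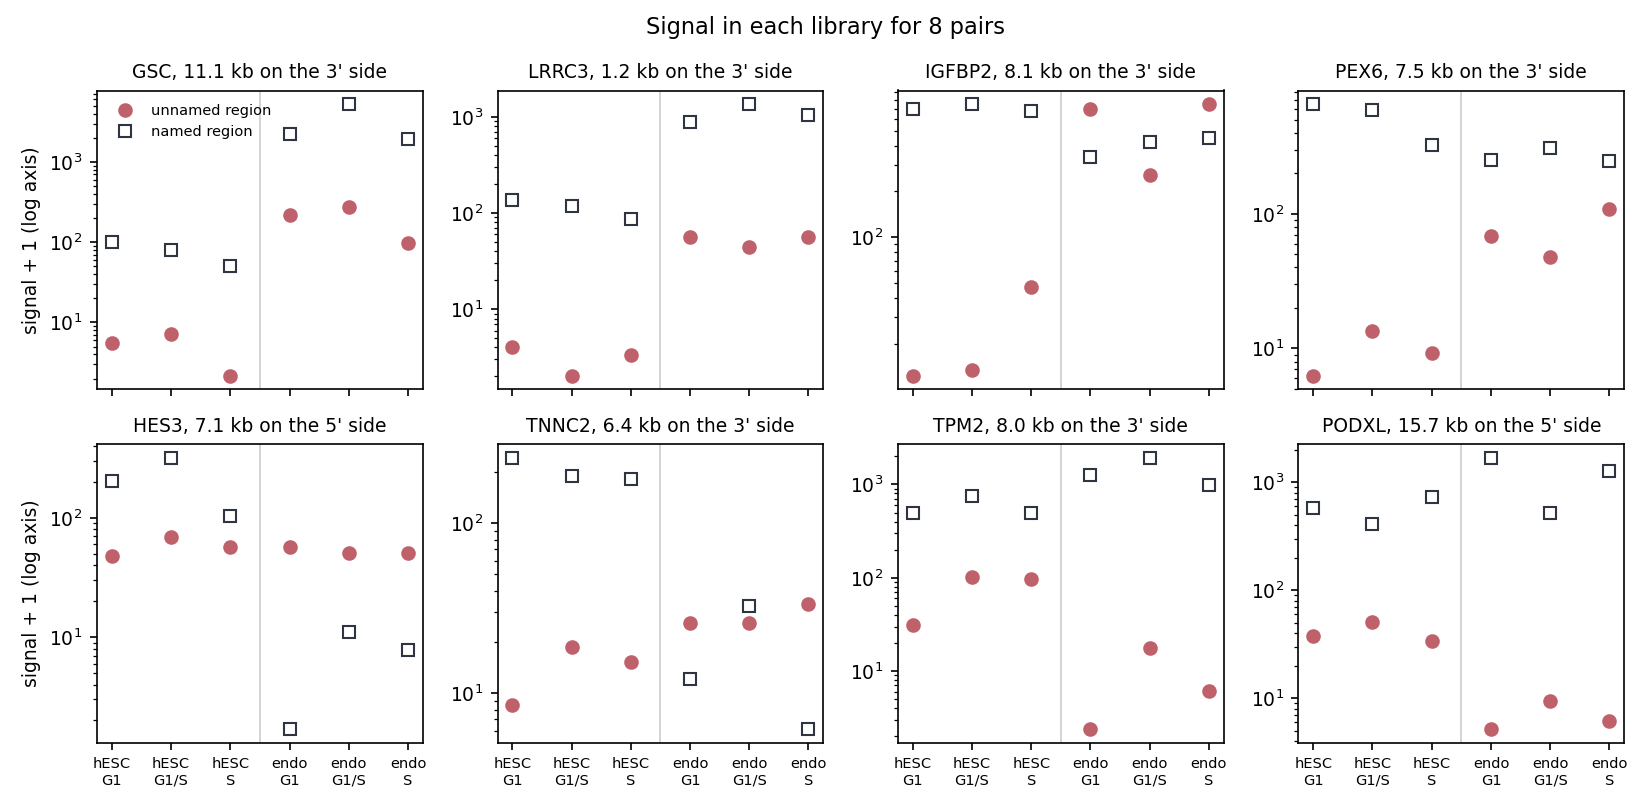
Signal + 1 on a log axis in each library (hESC G1, G1/S, S to the left of the grey line, endoderm to the right) for 8 pairs, with filled circles for the unnamed and open squares for the named region. GSC and LRRC3 move together with their unnamed region, IGFBP2 and PEX6 are overtaken or approached by it in endoderm, HES3 and TNNC2 drop while it has no called change, and TPM2 and PODXL part from a falling one.

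Named neighbours with more than one unnamed region show whether such regions behave alike. The 4 beyond ADD1, between 6.28 and 12 kb on its 3′ side, averaged between 11.7 and 48.6 and had log2 differences from -0.46 to -1.19, none called, while ADD1 rose by 1.45. Only the ratio of the farthest, chr4:2913336-2913495, was called, with a fall by 2.64 ± 0.65 (limma adjusted p = 0.0435). Beyond POLDIP3, 3 regions averaged 13.8 to 17.2 and none was called for itself or for its ratio. Across all members, 58 pairs of unnamed regions lie within 2 kb of each other on 1 strand. Their profiles over the 6 libraries had a median Pearson's r of 0.68, with 19 at 0.8 or more and 7 below 0, and 17 of them with both means at 20 or more had a median of 0.74. Of pairs chosen after their values were seen, those beyond ICOSLG both rose (1.32 ± 0.31 and 1.95 ± 0.52, r = 0.998). The regions beyond ZNF775 both fell (2.02 ± 0.30 and 1.68 ± 0.39, r = 0.94), as did those on the 5′ side of XPO1 (2.67 ± 0.49 and 2.80 ± 0.68, r = 0.92).

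Over the 6 libraries the profile of an unnamed region resembled that of its neighbour less than the profiles of same-name regions resembled each other. The median Pearson's r was 0.18 over 642 pairs, of which 72 reached 0.8 and 248 were below 0. Regions of the same name had a median of 0.35 (492 pairs), and named regions next to one of another name on the same strand 0.26 (1263 pairs). Unnamed regions set against the nearest named region on the opposite strand within 20 kb had a median of 0.37 (1394 pairs). These r values rest on 6 libraries that share depth and cell type, and are given as descriptions without a p. With means of 20 or more the medians were 0.32 (244 pairs), 0.46, 0.26 and 0.39. By distance the median was 0.52 within 2 kb (21 pairs), 0.48 at 2 to 5 kb (86), 0.21 at 5 to 10 kb (241) and 0.12 at 10 to 20 kb (294). Near regions were thus more alike than far ones, as the plot of r by distance shows.

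**Figure D4:**
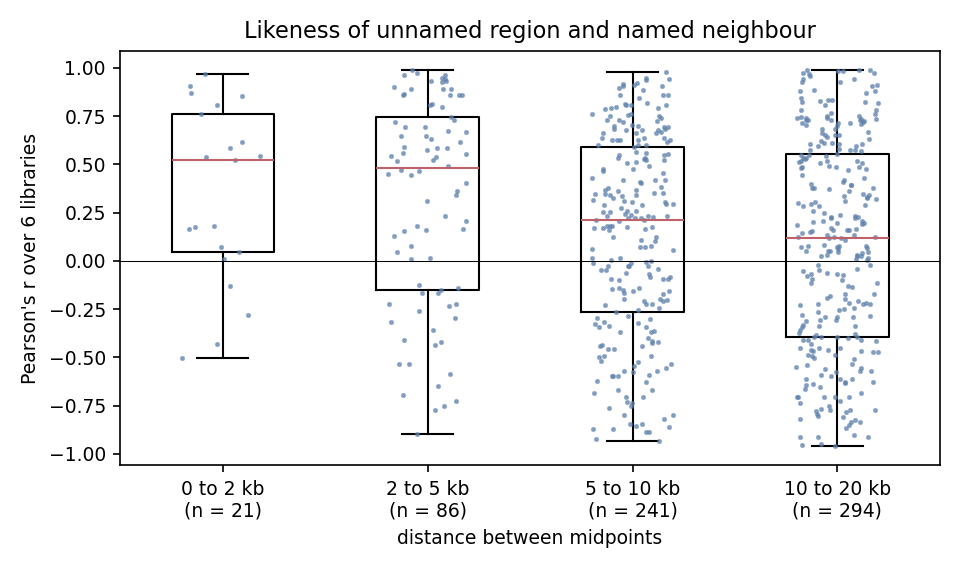
Pearson's r between the log2 signal of an unnamed region and that of its named neighbour over the 6 libraries (vertical) in 4 classes of distance, with 1 dot per pair and boxes for the quartiles and the median. The medians go from 0.52 and 0.48 in the classes within 5 kb to 0.21 and 0.12 beyond, and every class spreads widely.

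Named regions on the opposite strand were set beside the members as well, since 266 of 642 have one within 20 kb and 56 overlap one. The region beyond RPP30 lies 8.89 kb from a region of ANKRD1, an ankyrin repeat protein of the nucleus, on the other strand. ANKRD1 had 698, 383 and 476 in hESCs and 11426, 5570 and 14611 in endoderm and rose by 4.28 (limma adjusted p = 0.00131). Across the libraries its profile had an r of 0.91 with the unnamed region, where RPP30 had 0.23. The region beyond CLCN6 lies 0.844 kb from NPPB, which encodes a natriuretic peptide. NPPB went from 193, 145 and 496 to 6075, 3101 and 6254, a rise by 4.35 (limma adjusted p = 0.00135), with an r of 0.92 against -0.10 for CLCN6. The region beyond IGFBP2 lies 22.7 kb from IGFBP5 on the other strand, which rose by 4.21 (142, 93.7 and 75.02, then 1803, 1353 and 2651; limma adjusted p = 0.00213). In each of these 3 pairs, chosen after their values were seen, the opposite-strand gene rose with the unnamed region and the same-strand neighbour was not called. IGFBP5 lies outside the 20 kb limit. Other loci differ. The region beyond IL17RA, which rose, lies 0.951 kb from CECR6, which was not called (r = 0.03). The region beyond MDM2 fell, while CPM, 5.06 kb away on the other strand, rose by 2.16 (limma adjusted p = 0.0355, r = -0.85).

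**Figure D5:**
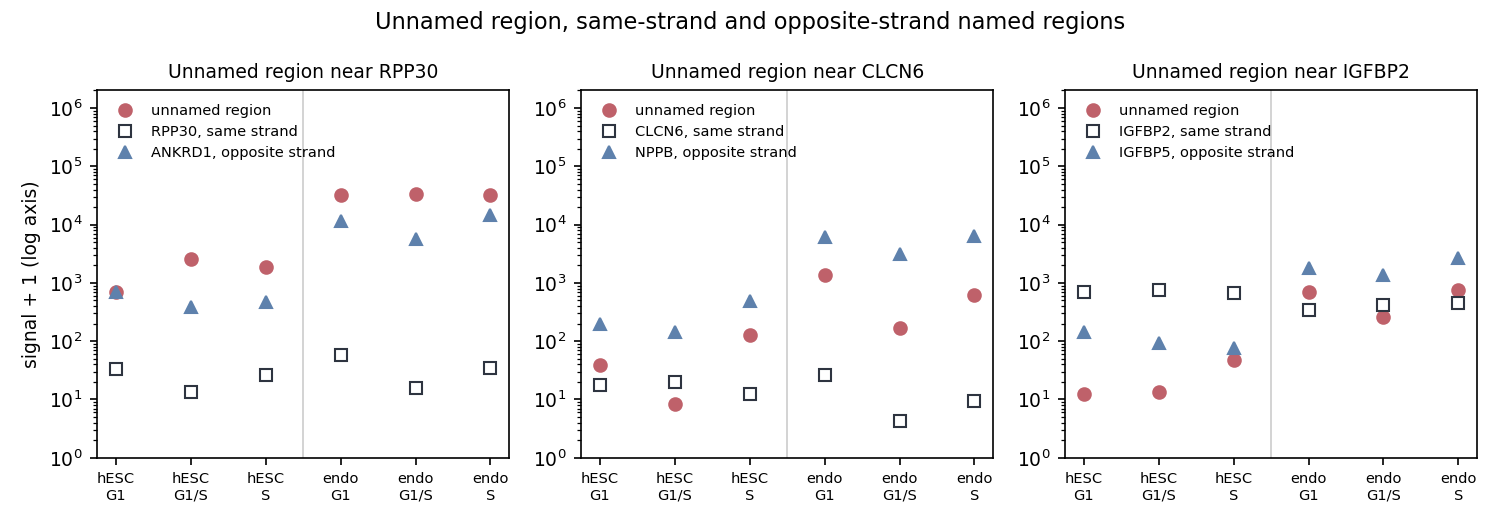
Signal + 1 on a log axis in each library for the unnamed regions beside RPP30, CLCN6 and IGFBP2 (filled circles), the named region on the same strand (open squares) and the nearest named region on the opposite strand (triangles). The circles and triangles are both higher in all 3 endoderm libraries, where the squares overlap with hESCs (RPP30, CLCN6) or are lower (IGFBP2).

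Counted over all members, an opposite-strand named region within 20 kb was present for 17 of the 42 that rose, and it rose in 7 of these and was not called in 10. It was present for 11 of the 37 that fell, and rose in 2 and was not called in 9. For comparison, 720 of all 10355 named regions tested rose and 723 fell. How many rose beside all 266 members with such a region was not counted. Of the 92 members within 1 kb of an opposite-strand named region, 10 rose and 1 fell, where 6.9% of all regions tested rose and 7.6% fell. Their median log2 difference was 1.10, against 0.02 over all regions, and 75 were weaker than the opposite region. A similar median, 1.02, held for the 1127 non-member unnamed regions tested that have a named region within 20 kb on the opposite strand only. The 56 members that overlap an opposite-strand named region had a median r of 0.41 with it and of 0.066 with their same-strand neighbour. Among all 92 members within 1 kb these medians were 0.31 and 0.13, and among the 174 at 1 to 20 kb 0.20 and 0.19. The 547 members tested with no opposite-strand named region within 1 kb had 32 rises and 36 falls and a median log2 difference of -0.04. The difference between these classes was not tested. How the authors assigned reads to a strand is not stated in the sources used here, and its part in these values was not tested.

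No member was called between phases. For S against G1 the fit, which assumes 1 phase effect for both cell types, called 0 of 639 (background 0% of all regions), with 23 members (3.6%) at an unadjusted p under 0.05, against 3.39% of all regions, and 0 calls by edgeR and by DESeq2. For G1/S against G1 it called 0 as well (background 0%), with 60 (9.39%) at an unadjusted p under 0.05, against 13.7% of all regions, 0 calls by edgeR and 4 by DESeq2, which gave an adjusted p to 329 of the 639. Without endoderm G1 there were 15 calls for S and 12 for G1/S, and without hESC G1 there were 13 for G1/S. A trio beyond NDUFV1, a core subunit of respiratory complex I, has 1 of the smallest p in both contrasts. At chr11:67151158-67151407 the signal was 163, 613 and 490.3 in hESCs and 106, 454 and 286 in endoderm, lowest in G1 and highest in G1/S in each cell type. The neighbouring chr11:67150565-67150741 had 194, 388 and 441 and then 106, 358 and 229. NDUFV1 had 1841, 1653 and 1026 and then 829.9, 1486 and 1003, an order that differs between the cell types.

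In 2 other members with the smallest p between phases, the lowest phase was the same in both cell types. A small p for a phase effect shared by both types selects such likeness, here and beyond NDUFV1, so it is no separate result. Beyond ZFYVE1 the signal was 7.57, 40.6 and 47.8 and then 13.8, 36.6 and 51.3, lowest in G1. The region beyond RAB11FIP4, an effector of the recycling GTPase Rab11, had 511, 460.2 and 227 and then 297, 331 and 139, lowest in S.

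Of 12 gene lists that fit these cells, few genes had an unnamed region near. In the definitive endoderm list 3 of 21 genes with a region did (GATA4, GSC and NODAL), and 3 of their 4 members rose, those of GSC and GATA4 described above, where 6.9% of all regions rose. Of the list's own 21 genes 16 rose. The fourth, 9.58 kb beyond NODAL, the ligand whose pathway activin A also feeds, had 6.81, 6.25 and 14.8 and then 32.5, 9.98 and 8.56. It was raised in endoderm G1 alone and was not called. In the list of the Wnt pathway 3 of 22 genes (FZD5, TCF7 and TCF7L1) had 4 members, of which 2 rose, and 5 of its 22 genes rose and 1 fell. Beyond the receptor FZD5 the signal went from 7.57, 17.7 and 7.68 to 40.7, 66.5 and 66.8, a rise by 2.37 ± 0.43 beside 3.603 for FZD5 (limma adjusted p = 0.0163). Beyond TCF7L1, a repressor of Wnt targets, it went from 17.4, 12.5 and 57.9 to 156, 31.6 and 152, which overlap (1.92 ± 0.46, limma adjusted p = 0.0344), while TCF7L1 had a log2 difference of 0.38. The FZD5 call was lost without a G1/S (2.62) or S library (2.07) of either type, that of TCF7L1 without a G1 (1.33) or G1/S library (2.24) of either type.

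In the pluripotency list 4 of 25 genes, among them FGF2, L1TD1 and PODXL, had 5 members, of which 1, beside PODXL, fell. Over all regions tested 7.6% fell, and of the list's own 25 genes 9 fell and 4 rose. The member beside L1TD1, an RNA-binding protein of pluripotent cells, had a signal of 111, 0 and 123 in hESCs and of 1.38, 1.66 and 0 in endoderm. With 0 reads in hESC G1/S it did not pass the threshold (limma adjusted p = 0.132), though edgeR called it. Beyond FGF2, a growth factor that hESCs need, the signal was 40.9, 13.5 and 32.5 and then 10.4, 6.65 and 13.7, not called, and FGF2 fell by 1.65. Later endoderm and hepatic genes had members beside APOC1 and ONECUT1 (2 of 6 genes, 3 members, 0 called). Of that list's own 6 genes 4 rose and 2 fell. APOC1, an apolipoprotein, rose by 1.38, and the region 11.8 kb beyond it had 21.2, 21.9 and 16.5 and then 47.0, 81.5 and 35.9, with a log2 difference of 1.35 (limma adjusted p = 0.0592).

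The other 8 lists held 0 called members. They were G1 cyclins, kinases and inhibitors (1 of 20 genes, CCND2), DNA replication (2 of 42, ORC3L and RFC3), mitosis (0 of 28), immediate early genes (1 of 26, MCL1) and nodal and activin signalling (2 of 19, among them NODAL). The remaining 3 were polyadenylation and cleavage factors (1 of 20, CPSF6), splicing factors and hnRNPs (4 of 31, HNRNPD, HNRNPU, SFRS4 and SRRM2), and DNA methylation and chromatin (5 of 20, DNMT3A, HMGA1, HMGA2, SMARCA4 and UHRF1). CPSF6, a subunit of cleavage factor I that acts in the choice of poly(A) sites, has 2 unnamed regions beyond it, at 7.33 and 11.8 kb. Their signals were 23.5, 17.7 and 17.1 and then 32.5, 28.3 and 25.7 in the nearer, and 6.05, 7.29 and 17.1 and then 8.98, 4.99 and 8.56 in the farther. In the same libraries CPSF6 had 49.9, 71.8 and 51.4 and then 22.8, 38.3 and 34.2, so the nearer region was higher and CPSF6 lower in every endoderm library, with the ratio not called (1.41 ± 0.66, limma adjusted p = 0.242).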

How the data were processed

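Oligo(dT)-primed 3′ RNA-seq libraries of 6 samples were analysed from 1 table of regions. The authors deposited a linear signal value per library and region. At a tolerance of 1e-06, 100% of the values were whole reads divided by 1 constant per library, which gave the read counts per region. Per the submitters' processing notes, the tools were CASAVA 1.5, DESeq 1.5.24 and Bowtie 0.12.7 and the builds hg18 and NCBI36. What each was used for is not stated there. How regions were found, named and put on a strand is not stated in the sources used here. No column of values was left unused (0), and no region sequences are printed.

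Signals were fitted as log2(value + 1) with limma 3.58.1 (R 4.3.3; lmFit, eBayes with trend) with terms for cell type and phase, over 14657 regions with at least 1 on that scale in 3 of 6 libraries (29 removed). Residual degrees of freedom were 2 and the prior 5.46 (7.53 for 1128 pairs). Pair ratios, log2(unnamed + 1) minus log2(named + 1), were fitted for 639 member pairs with 489 pairs of the same name. P-values were adjusted by Benjamini-Hochberg with a threshold of 0.05, over all regions or all pairs. Alternatives used edgeR 4.0.16 and DESeq2 1.42.0 on the recovered counts, pseudocounts of 0.5 and 5, a mean of at least 20, no filter, quantile normalization, no phase term, no trend and libraries left out. The scripts were tested on simulated data. Floors of 3 reads cover counting error only.

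The labels number the libraries by phase, and the phase term pairs them across cell types. Named members are the 10 strongest, the 10 largest rises and falls called and the 8 largest gains and losses of the ratio called, each with a mean of at least 20 in the higher cell type. They also include up to the 3 best expressed members for each of 12 gene lists, the members of the 3 neighbours with the most, the 3 on each side of the 20 kb limit and the 3 with the smallest p in each phase contrast. Members, lists and rules were chosen with earlier results of these data known. A few members that these rules name are not reported here.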

Additional observations from a re-analysis of the deposited data

How the results depend on the processing

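There are few libraries, and calls between endoderm and hESCs changed with those in the fit. The count of 79 members called became 20 without both G1/S libraries, and leaving out 1 library at a time gave 20 to 83. Such fits leave fewer residual degrees of freedom than the 2 of the full fit. A lost call need not mean a smaller log2 difference, as with the region beyond CEL. Restricting the distance gave 16 calls within 5 kb and 41 within 10 kb, as fewer regions enter. The 54 ratio calls became 24 with a mean of at least 20, 94 without both G1/S libraries, 47 to 100 without 1 library and 3 within 5 kb. Without the phase term, that is with no replicate block pairing the libraries of a phase, the counts were 72 and 37. The 0 calls for S against G1 became 0 to 15 without 1 library, and those for G1/S against G1 0 to 13, with 4 by DESeq2. The median r of 0.18 ranged from 0.16 to 0.24 without 1 library. Of 1126 values of named members under the alternatives, 998 kept direction and side of the threshold, 89 lost the call, 13 gained one and 26 changed sign, all among uncalled members. Without 1 library at a time the log2 difference ranged from -0.344 to 0.150 for IGF2BP1, -0.0612 to 1.35 for NODAL, -0.437 to 0.135 for CCND2, -0.515 to 0.106 for MCL1, -0.809 to 0.988 for TCF7, -0.696 to 0.0161 for the farther CPSF6 member, -1.001 to 0.214 for SFRS4 and -1.250 to 0.176 for SMARCA4. It ranged from -0.626 to 0.0467 and from -0.935 to 0.312 for the POLDIP3 members at chr22:41300629 and chr22:41297841, and from -0.303 to 0.0376 for HES3, which stood at 0.0376 without both G1/S libraries, as MCL1 did at 0.106. The cause was not tested. Of 201 ratio values 193 stayed and 8 lost the call. A median of 122 reads per member over 6 libraries limits what falls to near 0 can show.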
